A study of Homo sapiens with 2 samples.

Results

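The matrix metalloproteinases (MMP), the ADAM and ADAMTS proteases and the tissue inhibitors of metalloproteinases (TIMP) were compared between drug resistant ovarian cancer cells and their control. The genes were taken by name, as every gene of the array whose symbol starts with MMP, TIMP or ADAM, with ADAM22 left out. This gave 73 of the 30238 genes on the array, read by 115 of its 41000 probes. The naming rule itself uses no measured value, but the family was picked with earlier results of these data known. Of the 73 genes, 43 had 1 probe, 19 had 2, 10 had 3 and 1 had 4, and each gene is described by its brightest probe.

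A2780 is an established human ovarian carcinoma cell line. A2780CBN had been selected from it in rising doses of carboplatin, a platinum drug that crosslinks DNA, up to a terminal dose of 22.2 uM. A2780CBNDXL had been selected in rising doses of carboplatin and docetaxel together, the latter a taxane that stabilizes microtubules, and the labels give 8.02 uM for the combination as the tolerated dose. The study's text gives that value as the concentration of carboplatin that inhibits growth by 50%, a lower one as the dose reached in selection, and nanomolar concentrations for docetaxel, so the value is not comparable with that of A2780CBN. The control, A2780CC in the labels of both comparisons, was A2780 kept in culture alongside without drug, and the methods state that a control was kept for each line. Each line is represented by 1 pool of RNA from 3 isolations, which was hybridized with control RNA to 4 arrays, on 2 slides and with forward and reverse labelling on each. A value is therefore a mean ± SD over 4 arrays of 1 sample, the SD covers labelling and hybridization only, and no test across samples was possible. Each line is 1 selected population, so that selection, drug and chance differences between populations cannot be told apart.

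The arrays were alike in signal, with 59.8% to 67.5% of spots well above background per channel and no saturated spots. Outlier spots numbered 165 to 1006 per array. Log2 ratios of arrays of the same labelling direction correlated at 0.85 to 0.90 over all probes. Those of opposite directions correlated less, at 0.58 to 0.61 in A2780CBN and at 0.73 to 0.74 in A2780CBNDXL. Of the epithelial markers, KRT8, KRT18 and EPCAM gave signals well above background in both lines, though in 1 control channel EPCAM did so on 3 of 4 arrays, and KRT19 gave signals of 25.3 to 42.7. CDH1 (E-cadherin) and the ovarian marker WT1 stayed at background on all arrays, and PAX8 was above it with mean signals of 41.3 to 55.7. Of the endothelial markers PECAM1 and CDH5 stayed at background and VWF was above it on 1 or 2 arrays per channel. Of the macrophage markers PTPRC and CSF1R stayed at background, whereas CD68 (mean signals 82.6 to 154) and CD14 (53.7 to 86.8) were above it on every array. All 6 fibroblast markers were above background on some or all arrays of both lines, PDGFRB on 2 of 4 arrays of A2780CBNDXL and 3 of 4 of its control. COL3A1 was among the bright spots with a mean signal of 14983 to 42590 in the 4 channels.

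MMPs are zinc-dependent endopeptidases that cut collagens, proteoglycans and other matrix proteins. Most are secreted as inactive proforms, and a subgroup is held in the plasma membrane. ADAMs are membrane-bound relatives, several of which release growth factors and receptors from the cell surface, and ADAMTS proteases are secreted relatives with thrombospondin repeats, several of which cut proteoglycans. TIMPs bind the active site of MMPs and of some ADAM and ADAMTS enzymes. The naming rule also takes in genes without protease activity, such as ADAM23. In ovarian cancer the family is studied for its part in invasion of the peritoneal lining.

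The 250 bases before the transcription start are shown for 4 of the changed genes, and their make-up differs. MMP10 was higher in A2780CBN and lower in A2780CBNDXL, MMP14 and TIMP3 were higher in A2780CBNDXL, and ADAM23 was higher in A2780CBN. The sequences are from RefSeq on GRCh38.p14, each 5′ to 3′ on the strand of the gene. They lie at chr11:102780629-102780878 (minus strand) for MMP10, chr14:22836335-22836584 (plus) for MMP14, chr22:32801455-32801704 (plus) for TIMP3 and chr2:206443282-206443531 (plus) for ADAM23. Capitals mark the TATA box TATAAA, searched on the strand of the gene, and the GC box GGGCGG, searched on both strands.
MMP10: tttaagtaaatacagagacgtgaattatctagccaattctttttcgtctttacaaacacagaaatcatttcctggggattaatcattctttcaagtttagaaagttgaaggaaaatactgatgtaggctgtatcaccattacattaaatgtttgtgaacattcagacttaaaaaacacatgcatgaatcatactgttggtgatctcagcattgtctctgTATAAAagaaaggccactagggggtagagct
MMP14: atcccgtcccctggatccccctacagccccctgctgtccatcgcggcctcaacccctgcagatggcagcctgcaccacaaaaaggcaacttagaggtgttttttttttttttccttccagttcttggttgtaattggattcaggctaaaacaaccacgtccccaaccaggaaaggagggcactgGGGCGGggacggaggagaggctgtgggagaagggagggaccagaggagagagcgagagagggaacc
TIMP3: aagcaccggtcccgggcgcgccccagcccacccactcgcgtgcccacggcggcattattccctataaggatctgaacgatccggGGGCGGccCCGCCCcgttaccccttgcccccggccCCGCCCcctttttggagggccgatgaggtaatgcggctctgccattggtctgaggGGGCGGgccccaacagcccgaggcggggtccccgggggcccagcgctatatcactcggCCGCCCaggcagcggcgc
ADAM23: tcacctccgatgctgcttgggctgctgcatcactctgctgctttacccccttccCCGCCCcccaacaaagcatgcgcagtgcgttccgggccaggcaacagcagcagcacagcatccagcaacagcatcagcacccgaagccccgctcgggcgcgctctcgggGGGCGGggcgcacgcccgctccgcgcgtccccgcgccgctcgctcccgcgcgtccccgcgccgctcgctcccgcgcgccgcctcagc

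The MMP10 promoter held a TATA box that begins 31 bases before the start, 2 CG pairs and no GC box. The MMP14 window held 7 CG pairs and 1 GC box, that of TIMP3 26 CG pairs and 5 GC boxes, and that of ADAM23 33 CG pairs and 2 GC boxes. Over the 35116 promoters of the table, 6.80% held the TATA box, 42.6% the GC box and 4.20% the AP-1 site TGAGTCA on either strand, and the median was 11 CG pairs. The table listed 43 of the 73 genes. Among them, 6 of 12 MMP promoters held the TATA box and 5 the GC box, against 1 and 24 of the 31 ADAM, ADAMTS and TIMP promoters. Of the MMP genes clustered on the long arm of chromosome 11, the 5 listed (MMP7, MMP8, MMP10, MMP20 and MMP27) held 0 to 3 CG pairs, none held the GC box and 4 held the letters TATAAA. Counted from the start site, these letters began at -30 in MMP7, -31 in MMP10, -72 in MMP20 and -110 in MMP8. A match anywhere in the 250 bases was counted. The AP-1 site was found in MMP7 alone of the listed genes. These are matches of letters and say nothing of which factors bind.

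A gene was called changed when its mean ratio was at least 2-fold, had the same sign on all 4 arrays, and when 1 of its channels was well above background on all 4 (the filter). In A2780CBN 37 of the 73 genes passed the filter and 9 of these were changed, 7 higher and 2 lower. Over all 17949 genes that passed the filter in that line 12.6% were changed, 8.01% higher and 4.57% lower. In A2780CBNDXL 35 genes passed and 10 were changed, 5 higher and 5 lower. Over all 17120 genes that passed there 17.0% were changed, 7.72% higher and 9.23% lower. The members' shares, 24.3% and 28.6%, were thus above those of the whole array in both lines. The median log2 ratio of the members that passed was 0.08 in A2780CBN and 0.03 in A2780CBNDXL, against -0.06 and 0.04 over all genes. Since 34 of the 73 genes passed in neither line, these counts describe the expressed part of the family and not all members.

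**Figure D1:**
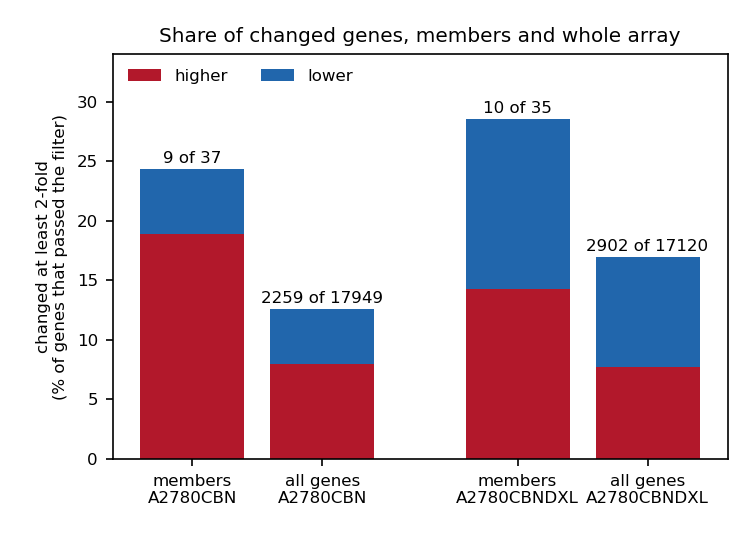
Share of genes changed at least 2-fold (y axis, percent of the genes that passed the filter) among the family members and among all genes, for each line over its control, with the part that was higher in red and the part that was lower in blue. The number changed of the number that passed stands above each bar. The members' bars, 9 of 37 and 10 of 35, are taller than those of the whole array.

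In all 15 members were changed in at least 1 line. MMP16 was higher and MMP3 lower in both lines, ADAMTS1 and MMP10 rose in A2780CBN and fell in A2780CBNDXL, 5 were changed in A2780CBN alone and 6 in A2780CBNDXL alone. Both comparisons carry control RNA of the same name, so the lines are given side by side and no overlap between them is counted as a result.

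**Figure D2:**
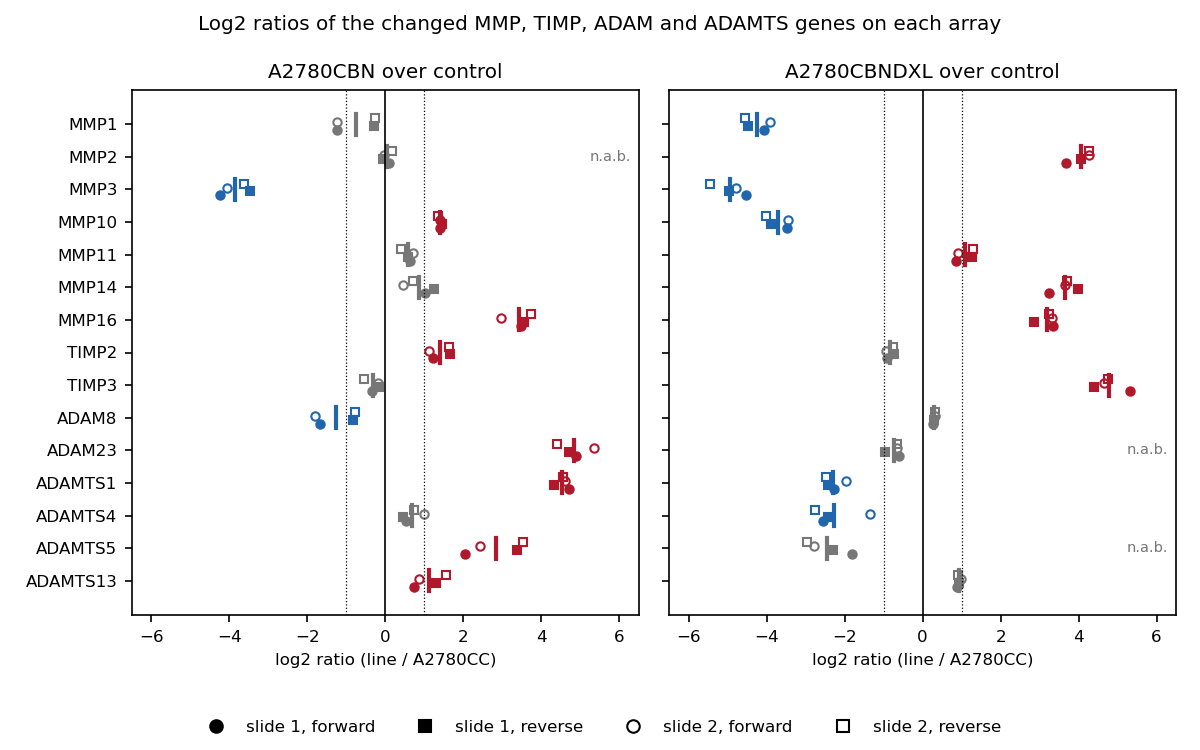
Log2 ratio of line over control (x axis) on each of the 4 arrays, for the 15 genes changed in at least 1 line. Circles are forward and squares reverse labelled arrays, filled for slide 1 and open for slide 2, and the bar is the mean. Red is higher, blue lower and grey not called, dotted lines mark 2-fold, and n.a.b. marks a gene that did not pass the filter in that line. ADAMTS1 and MMP10 lie to the right in A2780CBN and to the left in A2780CBNDXL.

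The stromelysins MMP3 and MMP10 cut proteoglycans, fibronectin and type IV collagen and can activate other proMMPs, and MMP1 is the interstitial collagenase. MMP3 had log2 ratios of -4.25, -3.46, -4.07 and -3.62 on arrays 1 to 4 of A2780CBN (arrays 1 and 3 forward, 2 and 4 reverse labelled). In A2780CBNDXL they were -4.53, -4.97, -4.79 and -5.44. The gene was thus low on every array of both lines, 14.4-fold lower in A2780CBN (mean -3.85 ± 0.37) and 30.5-fold lower in A2780CBNDXL (mean -4.93 ± 0.39).

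MMP10 gave 1.40, 1.45, 1.40 and 1.35 in A2780CBN, a mean of 1.40 ± 0.04. In A2780CBNDXL it gave -3.48, -3.90, -3.45 and -4.03, a mean of -3.71 ± 0.29. It was 2.64-fold higher in the carboplatin resistant line and 13.1-fold lower in the dual resistant line, and the arrays of both lines did not overlap. Its signal was high in both controls, with means of 7178 and 11316. With the control taken from the arrays of the other line, its ratio in A2780CBN was 0.89, under the 2-fold limit.

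MMP1 had log2 ratios of -4.06, -4.49, -3.90 and -4.55 in A2780CBNDXL, a mean of -4.25 ± 0.32 or 19.0-fold lower. In A2780CBN they were -1.23, -0.29, -1.25 and -0.27, a mean of -0.76 ± 0.55 that was not called and in which the forward arrays lay below the reverse arrays. MMP1 was also 1 of 2 members whose control channels differed between the lines, with a log2 difference of 1.02 ± 0.48 over matched arrays, higher in the control of A2780CBNDXL. Set against the control of the other line's arrays, its ratio was -1.78 in A2780CBN and -3.23 in A2780CBNDXL. The third stromelysin, MMP11, is named so by structure and its known substrates are few. It was 2.12-fold higher in A2780CBNDXL (mean 1.09 ± 0.23) and was not called in A2780CBN (0.58 ± 0.12). With normexp background correction and loess in place of the processed signals it gave 0.86 in A2780CBNDXL and the call was lost.

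MMP1, MMP3 and MMP10 lie side by side on chromosome 11, with probes at chr11:102165907-102165966, chr11:102211904-102211963 and chr11:102146615-102146674 of NCBI36. They belong to a run of 9 MMP genes whose probes span 421057 bases from MMP7 to MMP13. The other 6, MMP7, MMP8, MMP12, MMP13, MMP20 and MMP27, did not pass the filter in either line. MMP12, the macrophage elastase, did not rise well above background in any resistant channel and did so in the control on 1 array of A2780CBN and 2 of A2780CBNDXL. With the dim line channel raised to the lowest signal well above background, MMP12 was 1.11-fold and 1.43-fold lower over the 4 arrays. Both channels were dim on the other arrays, so these folds are no firm minima. All 3 measured genes of the run were therefore lower in A2780CBNDXL, whereas in A2780CBN MMP3 was lower, MMP10 higher and MMP1 not called.

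The array held 17 other genes within 1000000 bases of its ends, of which 15 passed the filter in A2780CBNDXL, with 2 higher and 3 lower. In A2780CBN 13 passed, with 2 higher and none lower. Over all genes that passed, 17.0% were changed in A2780CBNDXL and 12.6% in A2780CBN. The genes nearest to the run on either side were not changed by more than 2-fold in A2780CBN, and in A2780CBNDXL DCUN1D5 was lower by a value just past the limit. BIRC3, an inhibitor of apoptosis, with its probe at chr11:101713566-101713625, moved the way of MMP10. It was singled out after its values were seen. Its ratios were 4.46, 3.66, 4.22 and 5.20 in A2780CBN, at least 10.6-fold higher, and -2.33, -3.25, -3.16 and -3.57 in A2780CBNDXL, at least 2.23-fold lower. ANGPTL5 and KIAA1377, the 2 neighbours called higher in A2780CBNDXL, went against MMP10 there, at 5.59 ± 0.35 and 5.35 ± 0.37. In A2780CBN KIAA1377 was higher as well (3.80 ± 0.47) and ANGPTL5 did not pass the filter. The genes between BIRC3 and the run lay between -0.46 and 0.49 in A2780CBN. In A2780CBNDXL all of them were below the control, from -0.70 (LOC727869) to -1.87 (TMEM123). DNA copy number was not measured.

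**Figure D3:**
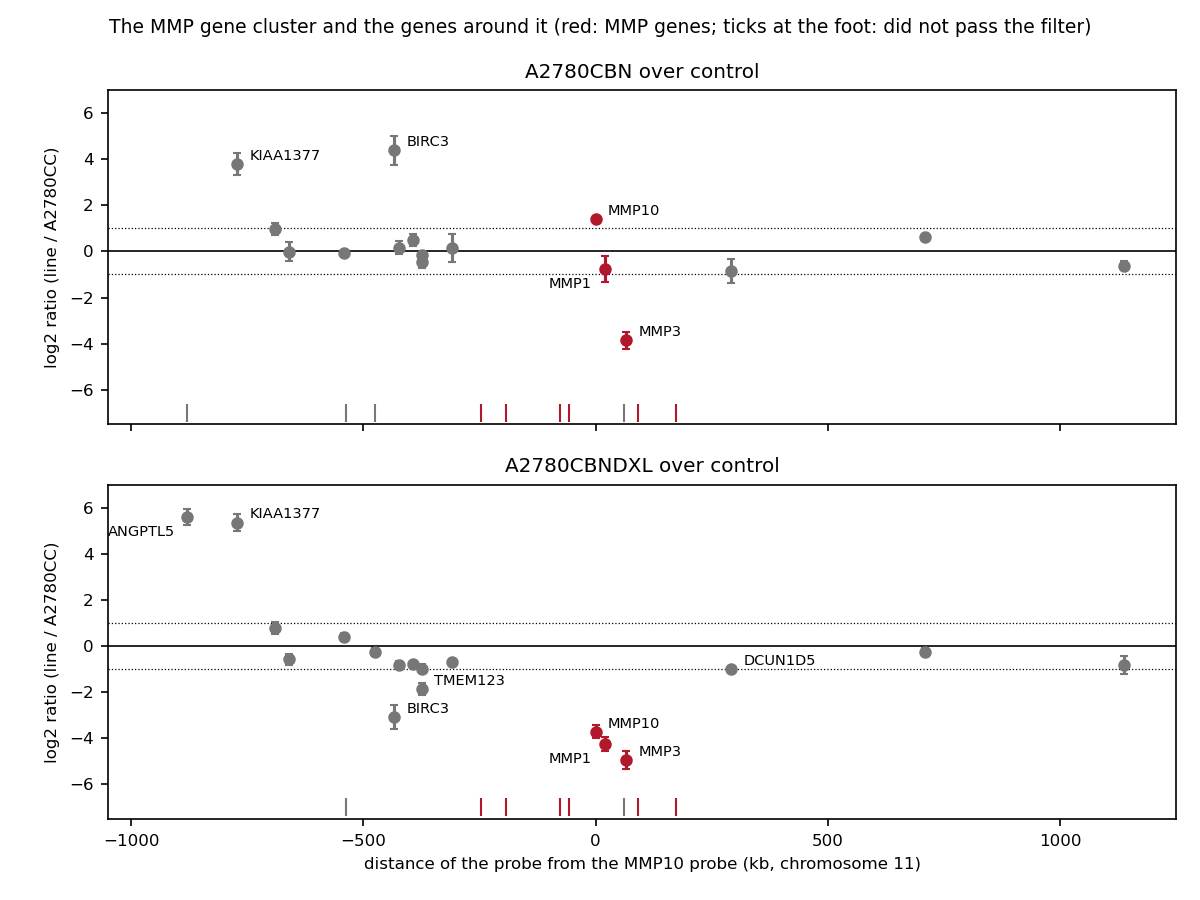
Mean log2 ratio of line over control (y axis, error bars SD over 4 arrays) against the distance of the probe from that of MMP10 in kb (x axis), for the MMP genes (red) and the genes around them (grey) that passed the filter. Ticks at the foot mark genes that did not pass. MMP1, MMP3 and MMP10 lie at -3.71 to -4.93 in A2780CBNDXL and at -3.85 to 1.40 in A2780CBN. The genes between BIRC3 and the run lie between -0.46 and 0.49 in A2780CBN. In A2780CBNDXL all of them lie below 0, from -0.70 to -1.87 (TMEM123).

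Gelatinases cut denatured collagen and type IV collagen, and the membrane-type MMPs act at the cell surface, where MMP14 (MT1-MMP) is known to activate proMMP2 together with TIMP2. MMP2 stayed at background in both controls and in A2780CBN. In A2780CBNDXL it gave 3.67, 4.05, 4.26 and 4.26 (mean 4.06 ± 0.28), and the dim control puts it at least 6.60-fold higher. With normexp and loess its value was 0.57 and the call was lost. MMP9, the other gelatinase, gave -0.50 ± 0.25 in A2780CBN and -0.37 ± 0.12 in A2780CBNDXL and was called in neither.

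MMP14 had log2 ratios of 3.24, 3.99, 3.66 and 3.70 in A2780CBNDXL, a mean of 3.65 ± 0.31 or 12.5-fold higher. In A2780CBN they were 1.02, 1.25, 0.44 and 0.70, a mean of 0.85 ± 0.36 under the limit. With background-subtracted, median-centred signals and with slide 1 alone (1.14) MMP14 was called higher in A2780CBN as well. MMP16 (MT3-MMP) had 3.49, 3.56, 2.97 and 3.73 in A2780CBN and 3.34, 2.85, 3.32 and 3.24 in A2780CBNDXL. It was 10.8-fold and 9.12-fold higher, the only member called higher in both lines. Its 2 other probes were called higher in both lines as well, with means of 2.49 and 3.05 in A2780CBN and 2.33 and 3.51 in A2780CBNDXL. Of the other membrane-type members, MMP15, MMP17 and MMP25 lay between -0.78 and 0.40 in both lines and were not called, and MMP24 did not pass the filter.

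TIMP1, TIMP2 and TIMP3 were measured and TIMP4 stayed at background on all arrays. TIMP3, the matrix-bound inhibitor with activity against ADAM17 and ADAMTS enzymes, gave 5.32, 4.40, 4.65 and 4.76 in A2780CBNDXL. It was 27.6-fold higher there (mean 4.79 ± 0.39) and had a mean of -0.32 ± 0.17 in A2780CBN, which was not called. TIMP2 gave 1.21, 1.65, 1.11 and 1.64 in A2780CBN and was 2.64-fold higher (mean 1.40 ± 0.28). In A2780CBNDXL it gave -0.91, -0.74, -0.94 and -0.76 (mean -0.84 ± 0.10), below the control on 4 of 4 arrays but under the limit. TIMP1 gave 0.66, -0.62, 0.75 and -0.68 in A2780CBN, opposite in sign between forward and reverse arrays, with a mean of 0.03 ± 0.79. In A2780CBNDXL it gave 0.46 ± 0.21 and was not called. The inhibitors thus did not move as a group, and the one called higher differed between the lines.

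**Figure D4:**
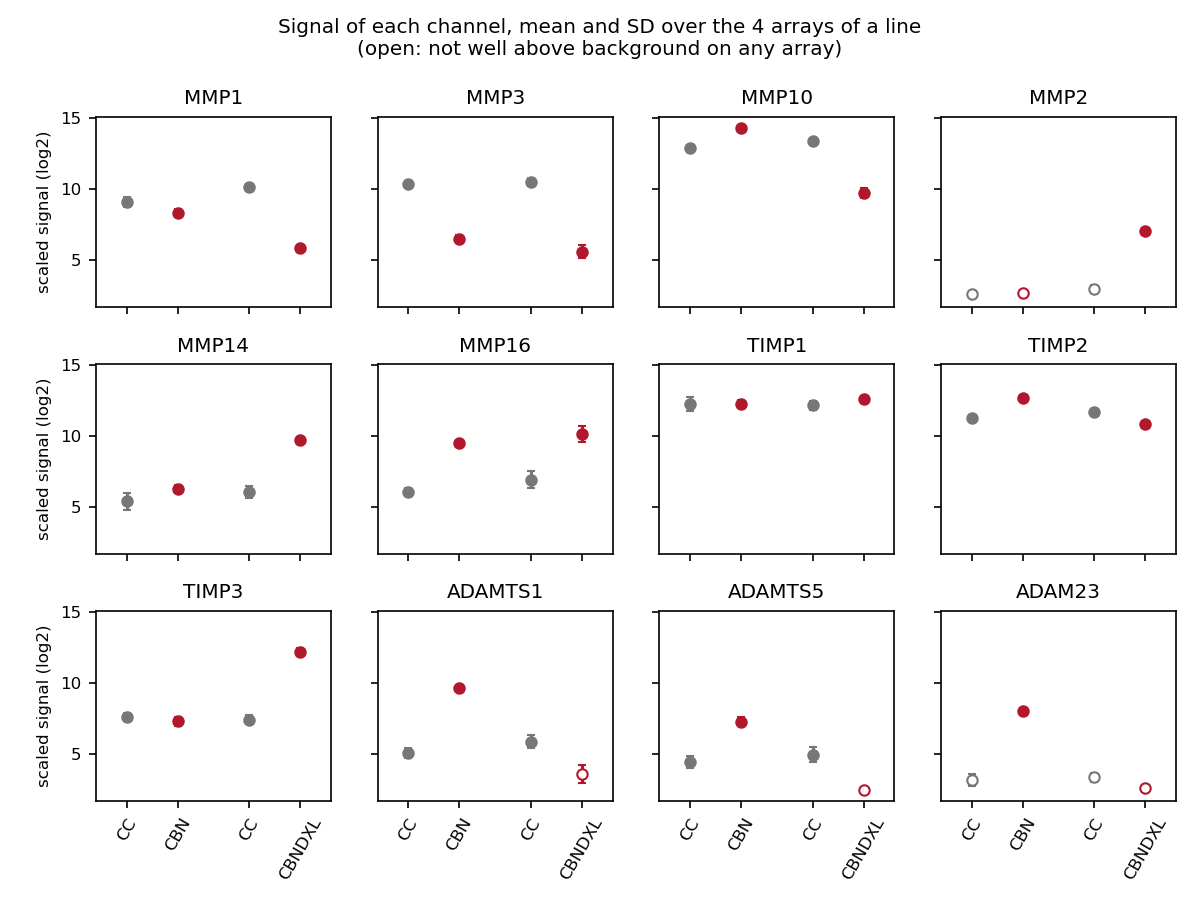
Scaled signal of the control (grey, CC) and the resistant line (red) in log2 units (y axis), mean and SD over the 4 arrays of each line, for 12 members. Open points were not well above background on any array. Levels are comparable within a gene and not between genes. MMP2 is above background in A2780CBNDXL alone and ADAM23 in A2780CBN alone, and the control of MMP1 is higher by 1.02 in the arrays of A2780CBNDXL.

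ADAMTS1 and ADAMTS5 cut the proteoglycans versican and aggrecan. ADAMTS1 gave 4.70, 4.31, 4.60 and 4.56 in A2780CBN, 23.3-fold higher (mean 4.54 ± 0.16). In A2780CBNDXL it gave -2.27, -2.43, -1.97 and -2.48 (mean -2.29 ± 0.23). The resistant channel stayed at background on these 4 arrays, which puts it at least 2.82-fold lower. A second ADAMTS1 probe gave means of 4.60 and -2.39. With normexp and loess the value in A2780CBNDXL was -0.27, and the call was lost.

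ADAMTS5 is the neighbour of ADAMTS1 on chromosome 21, their probes lying at chr21:27215707-27215766 and chr21:27131580-27131639 of NCBI36. It gave 2.04, 3.39, 2.42 and 3.53 in A2780CBN (mean 2.84 ± 0.73), 7.18-fold higher, with the control above background on 1 array. With normexp and loess this was 0.47 and the call was lost. In A2780CBNDXL the resistant channel stayed at background and the control was above it on 3 of 4 arrays. The gene did not pass the filter. Its bound of 1.55-fold lower averages over an array on which both channels were dim, so it is no firm minimum. Without array 1 it would have passed and been called lower. Of the 6 other genes of the array within 1000000 bases of the pair, 2 passed the filter in A2780CBN and 3 in A2780CBNDXL, none of them changed.

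ADAMTS4, a further aggrecanase, gave -2.55, -2.43, -1.36 and -2.75 in A2780CBNDXL, 4.83-fold lower (mean -2.27 ± 0.63). In A2780CBN it had a mean of 0.68 ± 0.25. Its control channels differed by 1.23 ± 0.54 between the lines, higher in that of A2780CBNDXL. Against the other line's control its means were -1.05 in A2780CBNDXL and -0.55 in A2780CBN, so the direction in A2780CBN turned. The mean in A2780CBNDXL was still past 2-fold, but the sign was not the same on all 4 arrays and the call was lost. It was also lost with normexp and loess (-0.63) and with the methods' ANOVA. ADAMTS13, which cuts von Willebrand factor, gave 0.73, 1.30, 0.87 and 1.56 in A2780CBN, 2.17-fold higher (mean 1.12 ± 0.38), and a mean of 0.93 ± 0.04 in A2780CBNDXL. Its 3 probes disagreed in A2780CBN, where the other 2 gave 0.68 and -0.28, and the call was lost with the mean over probes (0.50), with normexp and loess (0.84) and with the other line's control (0.94).

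Of the 22 ADAM genes, 10 passed the filter in A2780CBN and 9 in A2780CBNDXL. ADAM23, a non-catalytic ADAM that binds the LGI proteins, gave 4.90, 4.70, 5.35 and 4.40 in A2780CBN (mean 4.84 ± 0.40). The control stayed at background, so it was at least 11.3-fold higher. With normexp and loess the value was 0.85 and the call was lost. In A2780CBNDXL neither channel was above background. A second ADAM23 probe was not above background in either line. ADAM8 gave -1.68, -0.84, -1.80 and -0.78 in A2780CBN, 2.42-fold lower (mean -1.28 ± 0.54), with forward arrays below reverse ones, and 0.30 ± 0.02 in A2780CBNDXL. Against the other line's control its mean in A2780CBN was -0.56 and the call was lost, and that in A2780CBNDXL turned to -0.42.

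ADAM10 and ADAM17, the main sheddases of Notch receptors and of EGFR ligands and TNF, were called in neither line. ADAM10 gave 0.08 ± 0.21 in A2780CBN and -0.23 ± 0.40 in A2780CBNDXL, and with the other line's control both turned, to -0.42 and 0.28. ADAM17 gave 0.36 ± 0.03 and 0.03 ± 0.11. Its 3 probes lay between -0.28 and 0.72. ADAM9 was near the limit in A2780CBNDXL at -0.93 ± 0.05 and gave 0.59 ± 0.32 in A2780CBN.

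The members that passed and were not called numbered 28 in A2780CBN and 25 in A2780CBNDXL. Their means ran from -0.98 (ADAMTS3) to 0.85 (MMP14) and from -0.93 (ADAM9) to 0.93 (ADAMTS13). In A2780CBN 16 of the 28 had the same sign on all 4 arrays, and in A2780CBNDXL 18 of the 25. Other probes of 2 uncalled genes were called. One ADAMTSL4 probe was higher in A2780CBN (2.23 ± 0.74, control above background on 1 array) where the brightest probe gave -0.68 ± 0.38, and 2 of 3 ADAMTSL5 probes were higher in A2780CBNDXL (1.13 and 1.11) where the brightest gave 0.73 ± 0.11. ADAMTS7 had a spot left out as an outlier on array 4 of A2780CBN and so did not pass there. Its brightest probe gave mean signals of 15816 to 26294 and its 2 other probes signals of 6.33 to 54.8.

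The lines were also set against each other directly, through the resistant channels on arrays of the same slide and dye. Of the 38 members that could be compared, 13 differed at least 2-fold with the same sign on 4 of 4 arrays, where 16.5% of 17083 genes did so over the whole array. TIMP3 was 30.0-fold higher in A2780CBNDXL than in A2780CBN (log2 4.91 ± 0.32), and MMP14 11.1-fold higher (3.47 ± 0.33). MMP2 was at least 5.53-fold higher. MMP10 was 24.4-fold lower in A2780CBNDXL (-4.61 ± 0.36), MMP1 5.54-fold lower (-2.47 ± 0.40) and TIMP2 3.62-fold lower (-1.86 ± 0.23). ADAMTS1, ADAM23 and ADAMTS5 were at least 38.1-fold, 12.8-fold and 7.70-fold lower. MMP3 and MMP16, called in both lines against control, differed by -0.89 ± 0.52 and 0.60 ± 0.58 between the lines. The control channels, compared the same way, differed for 2 of 35 members, ADAMTS4 and MMP1, and for 4.71% of 16874 genes.

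The plasminogen activator system, urokinase included, turns plasminogen into plasmin, and plasmin activates several proMMPs. Of 14 genes of that system on the array, 8 passed the filter in A2780CBNDXL, with 2 higher and 4 lower, which is 75% changed against 17.0% of all genes, and 10 passed in A2780CBN, with 2 higher, or 20% against 12.6%. PLAU (urokinase) gave -3.44, -3.95, -3.51 and -3.98 in A2780CBNDXL, 13.2-fold lower (mean -3.72 ± 0.29). Its receptor PLAUR was 2.26-fold lower there. SERPINI1 (neuroserpin) was higher in both lines, 8.22-fold in A2780CBNDXL, where its control was above background on 2 of 4 arrays, and at least 2.81-fold in A2780CBN. SERPINE2, an inhibitor of urokinase and thrombin, was 2.14-fold higher in A2780CBN, against a control above background on 1 of 4 arrays.

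Of 26 activators and inhibitors outside the TIMP family, 16 passed in A2780CBN, with 2 higher, and 15 in A2780CBNDXL, with 2 higher and 1 lower. These shares, 12.5% and 20%, are close to the 12.6% and 17.0% of all genes. TFPI2, a secreted serine protease inhibitor, was higher in both, at least 2.98-fold in A2780CBN and 5.74-fold in A2780CBNDXL. A2M (alpha-2-macroglobulin) was at least 1.58-fold higher in A2780CBN and PCOLCE2 2.64-fold lower in A2780CBNDXL. Of 9 other metzincins, 2 of 5 that passed were higher in A2780CBN (40%) and 1 of 4 in A2780CBNDXL (25%). PAPPA, which cuts IGF-binding proteins, gave 6.02, 6.20, 5.45 and 5.38 in A2780CBN, 54.2-fold higher, and was 4.57-fold higher in A2780CBNDXL (2.19 ± 0.23). Its control was above background on 2 of 4 and on 1 of 4 arrays, so these folds rest on a channel mostly near background. TLL2, a tolloid protease, was at least 1.75-fold higher in A2780CBN.

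Targets and partners of the proteases were described in the same way. In A2780CBNDXL the share of changed partners was close to that of all genes. Of 12 partners of ADAM10 and ADAM17 that passed in each line, 3 were higher in A2780CBN, and 1 was higher and 1 lower in A2780CBNDXL, or 25% and 16.7% changed against 12.6% and 17.0% of all genes. TSPAN5, a tetraspanin that carries ADAM10 to the surface, was 2.35-fold higher in A2780CBN (1.23 ± 0.59) and 21.5-fold lower in A2780CBNDXL (-4.43 ± 0.39), where its signal was above background on 1 of 4 arrays. TSPAN15 of the same group gave 1.41 ± 1.05 in A2780CBN, and the ephrin receptor EPHA3 was 2.60-fold and 2.15-fold higher. Of the 10 Notch receptors and ligands, 2 of 7 that passed were changed in A2780CBN (28.6%) and 4 of 8 in A2780CBNDXL (50%). JAG1 was lower in both lines, at least 6.39-fold in A2780CBN and 2.76-fold in A2780CBNDXL. JAG2 was 2.29-fold lower in A2780CBN, and DLK1 was 10.0-fold higher in A2780CBNDXL (3.33 ± 0.06). Of 11 ligands of EGFR and related receptors, neuregulins among them, 3 passed in A2780CBN and 2 in A2780CBNDXL. HBEGF passed in both lines and was not called (-0.64 ± 0.27 and -0.54 ± 0.17). The neuregulin NRG2 was 6.22-fold higher in A2780CBN (33.3% changed, against 12.6% of all genes), and none was called in A2780CBNDXL. NRG2 did not pass there, with the control above background on 3 of 4 arrays and the line on none. Its bound of 2.28-fold lower averages over an array on which both channels were dim, so it is no firm minimum.

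Of 12 substrates of ADAMTS proteases, 4 of 6 that passed were changed in A2780CBN (66.7%, against 12.6% of all genes) and 4 of 5 in A2780CBNDXL (80%, against 17.0%). VCAN (versican) was 7.88-fold lower in A2780CBN (-2.98 ± 0.21) and 3.18-fold higher in A2780CBNDXL (1.67 ± 0.17). BCAN (brevican) went the other way, 3.41-fold higher in A2780CBN and at least 23.8-fold lower in A2780CBNDXL. DCN (decorin) and LUM (lumican) were higher in both lines, DCN 4.62-fold in A2780CBN and 12.3-fold in A2780CBNDXL, and LUM at least 2.21-fold and 5.70-fold. DCN and LUM are also among the 6 fibroblast markers, of which 4 were higher and 1 lower in each line, COL1A2 being 50.9-fold and 7.01-fold lower. Their part in the changes of the proteases was not tested.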

How the data were processed

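Gene expression was measured on 8 Agilent 2-colour arrays, 4 for each of 2 samples. The authors extracted the images with Agilent Feature Extraction (10.7.1.1 on slide 1, 10.7.3.1 on slide 2) and deposited the intensity of each spot, raw and processed; the processed intensity is background-subtracted, detrended and dye-normalized, with a surrogate near background. Forward arrays carry the control in Cy3; the dye entries of the reverse arrays conflict with their name, and these were turned over as the name states, which the positive correlation with the forward arrays bears on. The deposited processed intensities were turned into log2 ratios of line over control, control spots and outlier spots were left out, spots of a probe were averaged, and arrays were averaged within and then over labelling directions. Each gene is represented by its brightest probe. For a channel at background on all arrays, an "at least" fold was taken from Aquantile-scaled channels (limma 3.58.1, R 4.3.3), with the dim channel at the higher of its own signal and the lowest signal well above background. For MMP12, and for ADAMTS5 and NRG2 in A2780CBNDXL, the other channel was also dim on some arrays. Their folds are therefore no firm minima.

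Of the 73 members 69 matched a RefSeq accession; ADAM5P is now ADAM5. Probe coordinates are those of the files (NCBI36). Named are all members changed or bounded in a line, the TIMPs, MMP2, MMP9, MMP14, ADAM10 and ADAM17, and of each other list the genes changed in both lines and the 2 largest changes per line (a member given as a bound counts as named). PLAUR, the markers, BIRC3 and its neighbours, and the members that end a range or whose probes disagree were chosen after their values were seen. The members and lists were chosen with earlier results of these data known. The rule was tested on simulated data with known changes. A search for protein motifs was not made. The number of arrays limits the precision.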

Additional observations from a re-analysis of the deposited data

Results flagged for a closer look

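ADAMTS1 and MMP10 were called in both lines in opposite directions, on every array, and the difference was not tested, since each line is 1 sample. For ADAMTS1 the log2 ratios were 4.54 in A2780CBN and -2.29 in A2780CBNDXL. In A2780CBNDXL its line channel stayed at background, so that it was at least 2.82-fold lower, and with normexp and loess the value was -0.27 and the call was lost. For MMP10 the log2 ratios were 1.40 and -3.71. With the other line's control the MMP10 ratio in A2780CBN was 0.89 and the call was lost.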

How the results depend on the processing

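With normexp (offset 50) and loess, 6 members were changed in A2780CBN, 4 higher and 2 lower, and 6 in A2780CBNDXL, while 607 and 1175 genes were changed over the array; both steps were changed together and the cause was not tested. This ended the calls of ADAM23 (0.85), ADAMTS5 (0.47) and ADAMTS13 (0.84) in A2780CBN and of ADAMTS1 (-0.27), ADAMTS4 (-0.63), MMP2 (0.57) and MMP11 (0.86) in A2780CBNDXL. A fold limit of 1.5 gave 17 and 21 members and 4868 and 5713 genes, and a limit of 3 gave 5 and 9 members and 1127 and 1471 genes. Background-subtracted, median-centred signals gave 10 and 10 members and 2185 and 2734 genes. Slide 1 alone gave 10 and 10 members and 2379 and 2944 genes. Both settings added MMP14 in A2780CBN. Leaving out 1 array at a time gave 9 members in A2780CBN each time and 10 to 12 in A2780CBNDXL, where the 12 came without array 1 and added ADAMTS5 and ADAMDEC1; over the array the counts ran from 2290 to 2335 and from 2909 to 3197. With both channels required to be above background, 7 and 7 members and 1515 and 1968 genes were changed. ADAM23 and ADAMTS5 lost their calls in A2780CBN, and ADAMTS1, ADAMTS4 and MMP2 lost theirs in A2780CBNDXL. With the control taken from the arrays of the other line, 9 and 14 members and 2262 and 2836 genes were changed. In A2780CBN 6 of the 9 were shared, with ADAM8, ADAMTS13 and MMP10 lost and ADAMTS10, ADAMTS14 and MMP1 gained. In A2780CBNDXL 9 were shared, with ADAMTS4 lost and ADAM11, ADAMTS6, ADAMTS13, ADAMTSL4 and MMP15 gained. Over the array 1537 of 2259 changed genes were shared in A2780CBN and 2084 of 2902 in A2780CBNDXL. The methods' 3-way ANOVA, with array error alone, called 9 and 9 members and 2226 and 2674 genes, without ADAMTS4 in A2780CBNDXL, and limma with a dye term 9 and 10 members and 2263 and 2908 genes. No ratio that was called turned in the 10 alternatives of its value. Of those not called, ADAM10 in both lines, ADAM8 in A2780CBNDXL and ADAMTS4 in A2780CBN turned with the other line's control, and ADAM17 in A2780CBNDXL and TIMP1 in A2780CBN, both near 0, turned under other settings. Line and control were paired on each array, but no paired test across samples was possible, each line being 1 sample.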
